A study of Homo sapiens with 4 samples.

Results

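Collagens, laminins, fibronectin and the integrins that bind them were compared between HCT116 cells that received TET1 siRNA (2 samples) and HCT116 cells that received control siRNA (2 samples), each sample on 1 Affymetrix array. HCT116 is an established human colorectal cancer cell line, and TET1 encodes an enzyme that oxidises methylated cytosine in DNA; the series asked which genes TET1 regulates in these cells. Both groups were grown and transfected alike with a lipid reagent, and the labels name 1 TET1 siRNA condition, so what TET1 depletion did and what the siRNA did in other ways cannot be told apart. The members were all probe sets (groups of short probes against 1 transcript) whose single annotated gene symbol begins like a collagen chain (COL, digits, A), a laminin chain (LAMA, LAMB or LAMC with a digit) or an integrin subunit (ITGA or ITGB with a digit), or is FN1. They came to 219 of the 54675 probe sets on the array and covered 84 gene symbols. Of these, 43 were collagen chains with 112 probe sets, 10 laminin chains with 23, 12 integrin alpha subunits with 31 and 7 integrin beta subunits with 32, while fibronectin had 7. The other 11 symbols, with 14 probe sets, only share a name with the families: antisense and divergent transcripts, a pseudogene and the integrin-binding protein genes ITGB1BP1, ITGB1BP2 and ITGB3BP.

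Collagens are trimeric matrix proteins built around a triple helix, and laminins are heterotrimers of an alpha, a beta and a gamma chain that polymerise in basement membranes. Fibronectin is a dimeric glycoprotein that cells assemble into fibrils. Integrins are receptors made of 1 alpha and 1 beta subunit: the pairing sets the ligand, and the tails inside the cell connect it to actin. Carcinoma cells in culture make part of their own matrix, while the fibrillar collagens of a tumour come mostly from fibroblasts.

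The promoters of the 3 member genes with the largest changes are shown here as the 250 bases before the gene start, from RefSeq (GRCh38.p14), because TET1 acts on methylated cytosine in CG dinucleotides; capitals mark every CG. COL12A1 lies on the minus strand (chr6:75206054-75206303), ITGA2 on the plus strand (chr5:52989102-52989351) and FN1 on the minus strand (chr2:215436069-215436318).
COL12A1: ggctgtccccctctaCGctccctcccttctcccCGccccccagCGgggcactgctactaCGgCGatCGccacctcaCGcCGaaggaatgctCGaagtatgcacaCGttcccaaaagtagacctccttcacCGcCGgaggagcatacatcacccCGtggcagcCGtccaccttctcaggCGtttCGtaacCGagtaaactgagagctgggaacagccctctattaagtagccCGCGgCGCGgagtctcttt
ITGA2: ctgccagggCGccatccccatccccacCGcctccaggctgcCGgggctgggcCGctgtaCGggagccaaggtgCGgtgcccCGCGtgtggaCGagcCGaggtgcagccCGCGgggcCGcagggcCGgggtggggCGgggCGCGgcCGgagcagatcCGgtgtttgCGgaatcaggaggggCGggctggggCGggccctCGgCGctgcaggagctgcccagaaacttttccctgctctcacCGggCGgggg
FN1: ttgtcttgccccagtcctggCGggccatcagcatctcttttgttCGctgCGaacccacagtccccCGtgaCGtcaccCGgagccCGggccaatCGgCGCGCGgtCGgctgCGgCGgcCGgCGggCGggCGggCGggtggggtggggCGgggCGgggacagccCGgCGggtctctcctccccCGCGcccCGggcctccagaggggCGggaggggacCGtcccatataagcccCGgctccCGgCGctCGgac
These windows held 21 CG in COL12A1, 26 in ITGA2 and 32 in FN1, against a median of 11 (quartiles 3 and 23) over 35116 RefSeq promoter windows of the same length. Methylation was not measured in the series, so the counts describe sequence only.

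Each array gave 1 signal per probe set on a linear scale of arbitrary units. The authors had scaled the arrays to equal trimmed means (100.01), and median signals were 13.9 and 14.4 on the TET1 siRNA arrays and 14.3 and 15.5 on the control siRNA arrays. With 2 arrays a group, precision is limited by their number. Nothing in the labels says whether the duplicates, called biological in the design text, came from separate cultures, so p-values measure the spread between these samples. Where the array's TET1 probe set could be tested, TET1 read 14.6 and 15 with TET1 siRNA, against 58.1 and 59.6 with control siRNA (log2 difference -1.28, SE 0.20, limma adjusted p = 0.00104). That probe set reached the signal limit of 30 used below only through the control siRNA group, where it is high, so the values themselves are the check of the labels and the fold and p add none. Epithelial markers EPCAM (3133.5 and 3095.2, against 2869.5 and 2742) and KRT18 (7285 and 7561.4, against 6216 and 7119.4) were bright, while markers of colonic differentiation were dim: KRT20, CDX2, VIL1, CEACAM5 and TFF3 averaged 9.35 to 20.2. Of the 5 epithelial markers tested, KRT8 rose (log2 difference 0.32) and CDH1, the gene of E-cadherin, fell (474.8 and 394, against 925.1 and 1059, log2 difference -1.16).

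Most member genes gave little signal in these cells. A mean signal of 30 over the 4 arrays was reached by 62 of the 219 probe sets, in 32 of the 84 genes; the other 157 probe sets averaged 0.5 to 29.3 with a median of 5.55, and 52 genes had no probe set at 30. Counted by family, 12 of 43 collagen genes, 8 of 10 laminin genes, 5 of 12 integrin alpha genes, 4 of 7 integrin beta genes, fibronectin and 2 of the 11 like-named symbols reached it. Just inside the limit lay COL13A1 208535_x_at (31.8) and COL12A1 234951_s_at (31.95), and just outside it COL11A2 216993_s_at (29.3) and COL7A1 204136_at (27.0). Both groups averaged 30 or more in 59 of the 62. The other 3, COL12A1 234951_s_at, COL13A1 208535_x_at and FN1 214701_s_at, passed through 1 group. Bulk RNA of this kind cannot tell fewer cells with a transcript from less transcript per cell.

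All 20620 probe sets with a mean signal of 30 or more were fitted with limma on log2(signal + 16), and p-values were adjusted over all of them with a threshold of 0.05. Of the 62 member probe sets, 12 were higher and 8 lower after TET1 siRNA, and 42 did not pass. That is 32.3% of members called, against 23.2% of all probe sets tested (11.2% higher and 12% lower). With a mean of 30 required in both groups, 12 of 59 were higher and 7 lower. By its brightest probe set, 7 of 32 member genes were higher (COL12A1, COL13A1, COL1A1, LAMB3, ITGA2, ITGB1 and ITGB5) and 4 lower (FN1, LAMA2, LAMC1 and ITGA5), together 34.4% against 25.8% of all genes tested this way. Both arrays of 1 group lay above both of the other in 61.3% of member probe sets, a share near the background of 61.6%. The median log2 difference was 0.07 over the members and -0.0023 over all probe sets tested. Members stood further out in size: 7 of 62 (11.3%) changed by 1 or more on the log2 scale and passed, against 1.7% of all probe sets, but these were 4 probe sets of FN1, 2 of COL12A1 and 1 of ITGA2. Probe sets of 1 gene can read the same transcripts and are not independent.

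**Figure D1:**
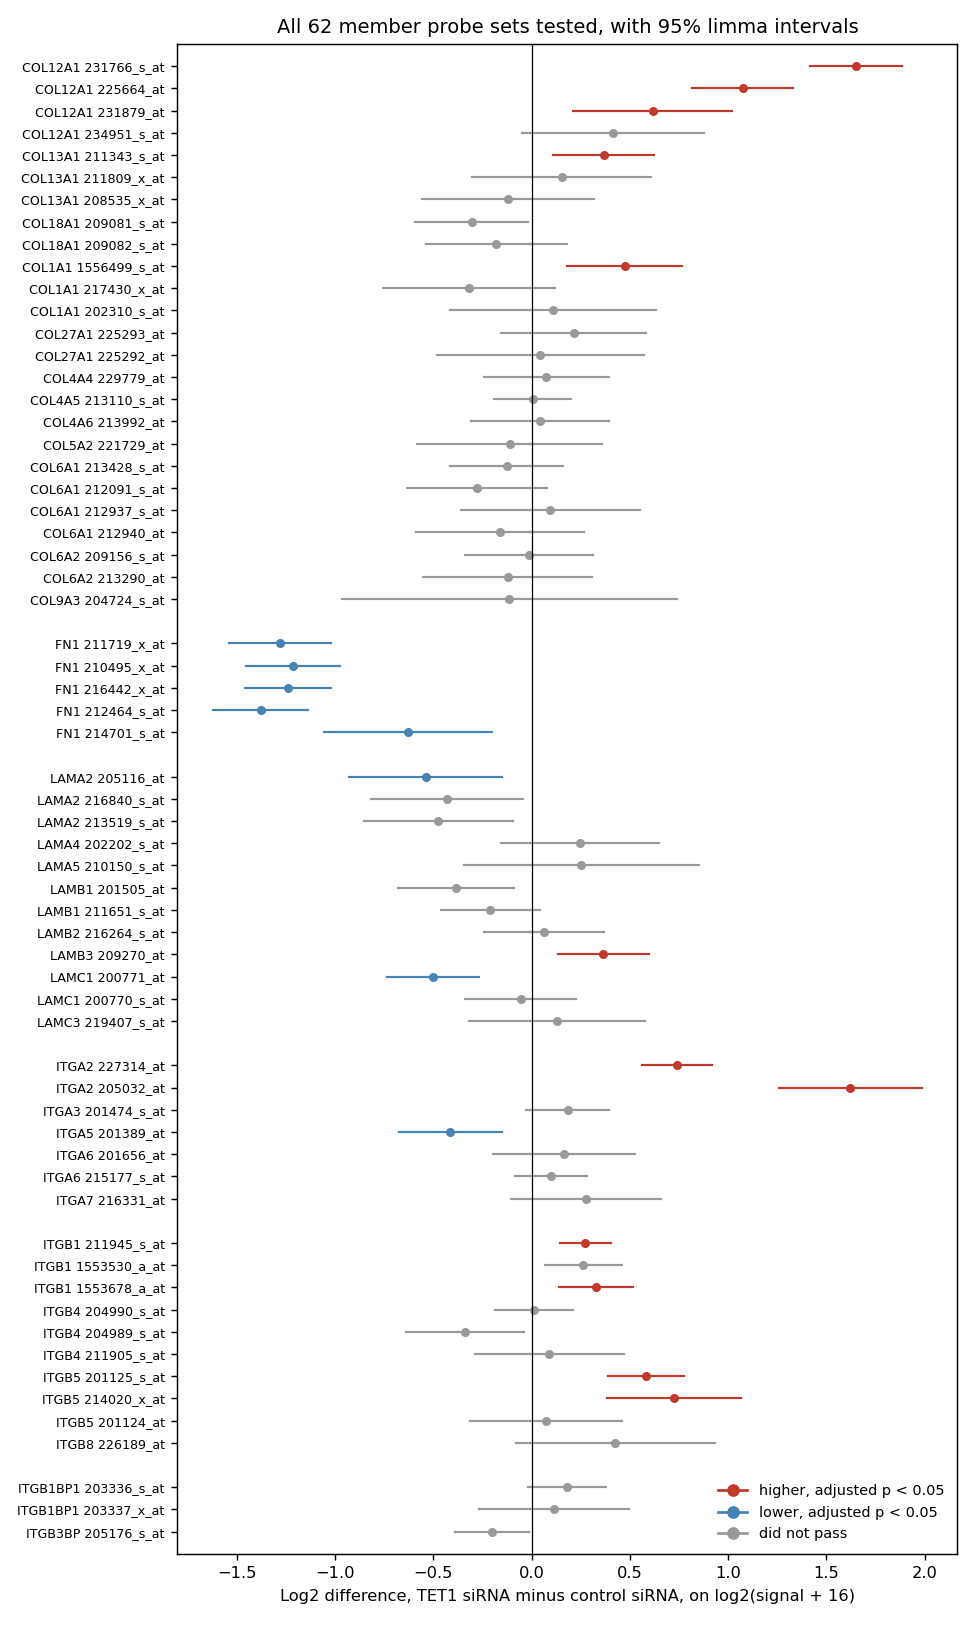
Log2 difference (TET1 siRNA minus control siRNA, on log2(signal + 16)) of each of the 62 tested member probe sets, grouped as collagens, fibronectin, laminins, integrin alpha, integrin beta and like-named genes; points are limma estimates and lines their 95% intervals, with red for higher, blue for lower and grey for probe sets that did not pass. COL12A1 and ITGA2 extend farthest right (1.65 and 1.62) and FN1 farthest left (-1.38).

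Fibronectin fell in all 4 probe sets that averaged 30 or more in both groups. FN1 encodes the fibronectin chain, a ligand of the integrin made of ITGA5 and ITGB1. The brightest probe set, 211719_x_at, read 267.5 and 237.4 on the TET1 siRNA arrays, against 565.9 and 713.7 on the control siRNA arrays. Signals did not overlap, and control cells gave 2.53 times the signal of TET1 siRNA cells (log2 difference -1.28, SE 0.12, limma adjusted p = 5.32e-05). Probe set 212464_s_at showed the largest fall of the gene, with 190.9 and 160.3 after TET1 siRNA, against 463.5 and 498.7 after control siRNA (log2 difference -1.38, SE 0.11). The _x_at probe sets 210495_x_at and 216442_x_at differed by -1.21 and -1.24. The dimmest tested, 214701_s_at, read 28.4 and 22.8 against 49.8 and 46.5 (log2 difference -0.63, SE 0.19, adjusted p = 0.0391). It was tested only through the control siRNA group, where it is high, so it adds no support, and it did not pass when any single array was left out (adjusted p 0.0635 to 0.168). It also did not pass after quantile normalization (adjusted p = 0.0566) or median centring (0.057). The 4 brighter probe sets passed in all moderated alternatives in which they had a value. Every tested FN1 probe set is an _x_at or _s_at, whose probes can match several transcripts. FN1 therefore had no value when such probe sets were left out, and its fall was not checked in that way. Among all 20620 probe sets, the fall of 212464_s_at was number 49 in size. The remaining FN1 probe sets, 1558199_at (10.5 and 16.6 against 5.9 and 6.8) and 214702_at (3.7 and 3.8 against 3.6 and 1), lay below the signal limit and were not tested.

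Type XII collagen was the collagen with the largest rise. COL12A1 encodes the chain of a fibril-associated collagen, which sits on the surface of collagen fibrils and links them to other matrix proteins. Its brightest probe set, 231766_s_at, read 392.6 and 409.6 on the TET1 siRNA arrays, against 113.4 and 120 on the control siRNA arrays. That is a 3.44-fold higher signal with a wide gap between the groups (log2 difference 1.65, SE 0.11, limma adjusted p = 6.29e-06). Probe set 225664_at read 239.1 and 234.4, against 100.6 and 107.5, a 2.28-fold higher signal (log2 difference 1.07, SE 0.12). Of the dimmer tested probe sets, 231879_at (55.2 and 68.2, against 37.3 and 31.9) passed with a log2 difference of 0.62 and adjusted p = 0.0341. Probe set 234951_s_at (32.7 and 45.1, against 23.5 and 26.5) did not pass (0.41, adjusted p = 0.185). It reached the signal limit only through the TET1 siRNA group, where it is high, so its direction adds no support. The call of 231879_at was lost when any single array was left out (log2 difference 0.49 to 0.74, adjusted p 0.0508 to 0.203), while the 2 brighter ones passed in every moderated alternative in which they had a value.

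Other collagens that passed moved by far less and in 1 probe set each. COL13A1 encodes a collagen that spans the cell membrane. Its brightest probe set read 305.4 and 266.5 after TET1 siRNA, against 234.5 and 202.1 after control siRNA (log2 difference 0.37, SE 0.12, limma adjusted p = 0.0432), and the others, 211809_x_at (0.15) and 208535_x_at (-0.12), did not pass. The call ended without control siRNA replicate 2 (0.27, adjusted p = 0.202) and without TET1 siRNA replicate 1 (0.27, adjusted p = 0.229). It also ended with the mean of its tested probe sets (0.13, adjusted p = 0.515), after quantile normalization (adjusted p = 0.0509) and with a filter at the median log2 value (adjusted p = 0.0558). COL1A1, the alpha 1 chain of the main fibrillar collagen of connective tissue, read 337.4 and 451.9 against 296.2 and 258.9 in probe set 1556499_s_at (log2 difference 0.47, SE 0.13, adjusted p = 0.026). Its other tested probe sets gave 49.9 and 67.3 against 62.5 and 93 in 217430_x_at (-0.32, adjusted p = 0.277) and 29.7 and 57.3 against 34.2 and 41.5 in 202310_s_at (0.11, adjusted p = 0.79). These 3 do not point 1 way, and in the last 2 the groups overlap. With the mean of its tested probe sets COL1A1 was at 0.09 (adjusted p = 0.732). Without TET1 siRNA replicate 2 it was at 0.27 (adjusted p = 0.201), and without control siRNA replicate 2 at 0.38 (adjusted p = 0.107). COL1A2, whose chain joins COL1A1 in the trimer, read 12.3 and 11.1 against 19 and 12.9. The summed signal of the 9 other fibroblast markers (COL1A2, COL3A1, DCN, LUM, PDGFRA, PDGFRB, POSTN, FAP and THY1) was 79.9 and 70.8 with TET1 siRNA and 71.1 and 83.3 with control siRNA, and there the groups overlap.

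The basement membrane and microfibril collagens did not pass, and the following genes other than COL4A5 were named after their values were seen. COL4A5, the brightest collagen gene that did not pass, encodes a chain of the type IV network. It read 418.1 and 417 after TET1 siRNA, against 429.3 and 402.6 after control siRNA, with a log2 difference of 0.01 (95% interval -0.19 to 0.20). COL4A6, its head-to-head neighbour on the X chromosome, was at 0.04 (interval -0.31 to 0.39), and COL4A4 at 0.07 (-0.24 to 0.39). COL4A1 and COL4A2, which encode the most widespread type IV chains, averaged 6.68 and 4.4 at best and were not tested. COL6A1 and COL6A2, chains of the beaded filaments of type VI collagen, gave 4 and 2 tested probe sets with log2 differences of -0.28 to 0.10 and of -0.12 and -0.01. COL18A1, a basement membrane collagen that carries the endostatin fragment, had -0.31 (adjusted p = 0.118) and -0.18 (adjusted p = 0.468). COL9A3 read 68.4 and 25.9 against 83.2 and 25.7: within each group the arrays differed far more than the groups did, and its interval, -0.97 to 0.74, allows a change of either sign.

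**Figure D2:**
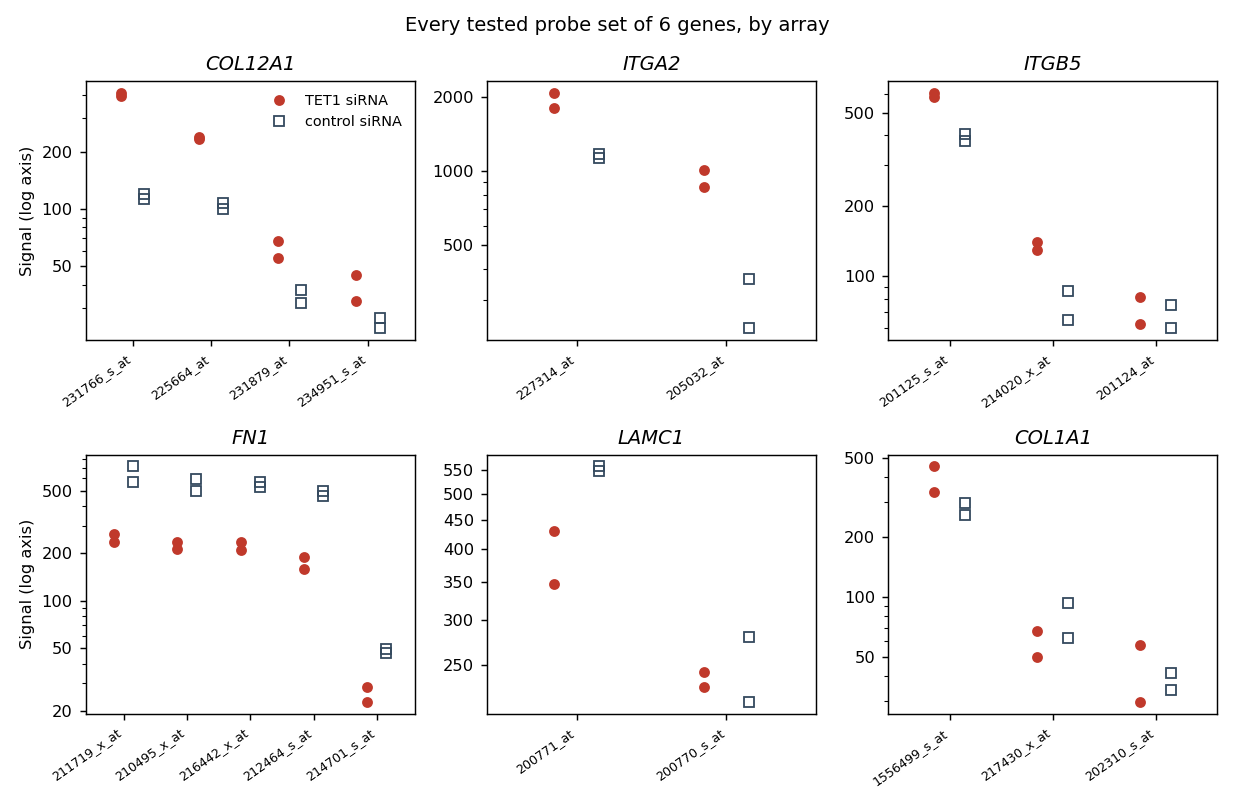
Signal of every tested probe set of COL12A1, ITGA2, ITGB5, FN1, LAMC1 and COL1A1, on log axes in arbitrary units; filled circles are the 2 TET1 siRNA arrays and open squares the 2 control siRNA arrays. All tested probe sets of COL12A1, ITGA2 and FN1 separate the groups the same way within a gene. Of these, 234951_s_at of COL12A1 and 214701_s_at of FN1 reached the signal limit only through the group where they are high. The groups overlap in 201124_at of ITGB5, 200770_s_at of LAMC1 and both dim COL1A1 probe sets. Over all probe sets tested, 61.6% separate the groups in either direction.

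Of 12 tested laminin probe sets, 1 rose (LAMB3), 2 fell (LAMC1 and LAMA2) and 9 did not pass, with a median log2 difference of -0.13. That share is near the 23.2% called over all probe sets and is not a result about laminins as a family. LAMC1 encodes the gamma 1 chain found in most laminins. In 200771_at it read 429.8 and 346.6 after TET1 siRNA, against 548 and 558.9 after control siRNA, with no overlap (log2 difference -0.50, SE 0.11, limma adjusted p = 0.00663). Its other probe set, 200770_s_at, read 228.2 and 242.9 against 279.4 and 215 and did not pass (-0.06, adjusted p = 0.801). LAMB1, the beta 1 chain that pairs with it and the brightest laminin gene that did not pass, read 200.2 and 161.8 against 217.8 and 263.9 (-0.38, adjusted p = 0.0619), and both of its probe sets lay below control siRNA on each TET1 siRNA array. LAMA2, an alpha chain best known from muscle, had 3 tested probe sets at -0.54, -0.43 and -0.47. In each of them both TET1 siRNA arrays lay below both control siRNA arrays. Over all probe sets tested 30.9% lay below in this way, so the separations of LAMB1 and LAMA2 add no support. Only 205116_at of LAMA2 passed (41.2 and 57.4 against 80.6 and 75.7, adjusted p = 0.0488), and 216840_s_at and 213519_s_at did not (adjusted p = 0.104 and 0.0709). That call lay at the threshold: it ended in 11 of 17 moderated alternatives (highest adjusted p 0.273, without TET1 siRNA replicate 1, at -0.36), with the replicate block among them (adjusted p = 0.0591).

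LAMB3 was the only laminin gene called higher. It encodes a beta chain of an epithelial laminin that binds the integrin of ITGA6 and ITGB4, and it read 275 and 260 after TET1 siRNA, against 197.9 and 210.1 after control siRNA (log2 difference 0.37, SE 0.11, limma adjusted p = 0.0285). Leaving out any single array ended the call (0.33 to 0.41, adjusted p 0.0507 to 0.135). LAMA5, an alpha chain of epithelial basement membranes named after its values were seen, read 117.3 and 161.2 against 73.7 and 169.2, and its groups overlap (0.25, interval -0.34 to 0.85). LAMA4, LAMB2 and LAMC3 had log2 differences of 0.25, 0.06 and 0.13 and did not pass, and LAMA1 and LAMB4 were too dim to test.

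Of the integrin alpha subunits ITGA2 rose and ITGA5 fell. ITGA2 pairs with ITGB1 to form a collagen receptor of epithelial cells and platelets. Its brighter probe set, 227314_at, read 2071 and 1805.1 after TET1 siRNA, against 1168.6 and 1133.7 after control siRNA, a 1.68-fold higher signal (log2 difference 0.74, SE 0.08, limma adjusted p = 1.26e-04). The second, 205032_at, read 1004.9 and 862.4 against 231.2 and 366.4, a 3.13-fold higher signal (log2 difference 1.62, SE 0.17, adjusted p = 9.40e-05). In both the groups are far apart, but the estimates are unequal: their 95% intervals, 0.56 to 0.92 and 1.26 to 1.99, do not meet. The rise of 205032_at was number 13 in size among all 20620 probe sets, and that of 231766_s_at of COL12A1 was number 12. Both ITGA2 probe sets passed in every moderated alternative in which they had a value. The alpha subunits of the other collagen-binding integrins, ITGA1, ITGA10 and ITGA11, averaged 7.45, 12.7 and 9.18 at best and were not tested.

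ITGA5 pairs with ITGB1 in the main fibronectin receptor. It read 130.4 and 136.9 after TET1 siRNA, against 176.2 and 190.5 after control siRNA, with no overlap (log2 difference -0.41, SE 0.12, limma adjusted p = 0.0285). Its call ended without control siRNA replicate 2 (-0.36, adjusted p = 0.126), without TET1 siRNA replicate 1 (-0.38, adjusted p = 0.112) and without TET1 siRNA replicate 2 (-0.44, adjusted p = 0.067). The alpha subunits of laminin-binding integrins did not pass. ITGA6, the brightest alpha gene among them, was at 0.17 (interval -0.19 to 0.53) and 0.10 (-0.09 to 0.28). ITGA3 read 325.7 and 323.3 against 291.3 and 276.2 (0.18, adjusted p = 0.197), and ITGA7 was at 0.28 (adjusted p = 0.281); both were named after their values were seen.

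Among beta subunits, ITGB5 and ITGB1 rose. ITGB5 pairs with ITGAV in a vitronectin receptor. Its brightest probe set read 608.7 and 583.1 after TET1 siRNA, against 406 and 378.9 after control siRNA, a 1.52-fold higher signal (log2 difference 0.58, SE 0.09, limma adjusted p = 9.48e-04). On the log2(signal + 16) scale this lies just under a 1.5-fold limit, which ended the call. Probe set 214020_x_at read 129.4 and 139.1 against 86.5 and 64.5 (0.73, adjusted p = 0.00679). In contrast 201124_at read 81.4 and 62.4 against 59.6 and 75.2, where the groups overlap, and did not pass (0.07, interval -0.31 to 0.46). ITGAV, whose symbol the member rule does not take and which was named after its values were seen, read 1062.6 and 1116.3 against 967.6 and 965.5 (0.17, adjusted p = 0.121). ITGB1, the shared partner of ITGA2, ITGA3 and ITGA5, read 6328.9 and 6098.5 against 5031.1 and 5250.5 (log2 difference 0.27, SE 0.06, adjusted p = 0.00717), and its other tested probe sets were at 0.33 (adjusted p = 0.0177) and 0.26 (adjusted p = 0.055). All 3 were higher on both TET1 siRNA arrays than on both control siRNA arrays, as were 30.7% of all probe sets tested. The ITGB1 calls ended without TET1 siRNA replicate 1 (0.25, adjusted p = 0.0816, and 0.27, adjusted p = 0.101), and that of 1553678_a_at also without control siRNA replicate 1 (0.21, adjusted p = 0.0785).

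ITGB4, the partner of ITGA6 in hemidesmosomes and the brightest beta gene that did not pass, read 426.5 and 425.9 after TET1 siRNA, against 438.8 and 406.9 after control siRNA (log2 difference 0.01, interval -0.19 to 0.21). Its probe set 204989_s_at was lower on both TET1 siRNA arrays (96.8 and 102.7 against 141.3 and 120.2) but did not pass (-0.34, adjusted p = 0.0995). ITGB8, named after its values were seen, read 82.9 and 132.9 against 95.6 and 57 and overlapped (0.43, adjusted p = 0.211). ITGB2, ITGB3 and ITGB7, subunits known from leukocytes and platelets, averaged at most 4.9, 10.2 and 3.88. Of the like-named genes, ITGB3BP, a centromere protein gene, was at -0.20 (adjusted p = 0.116), and ITGB1BP1 at 0.18 and 0.11; none passed.

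**Figure D3:**
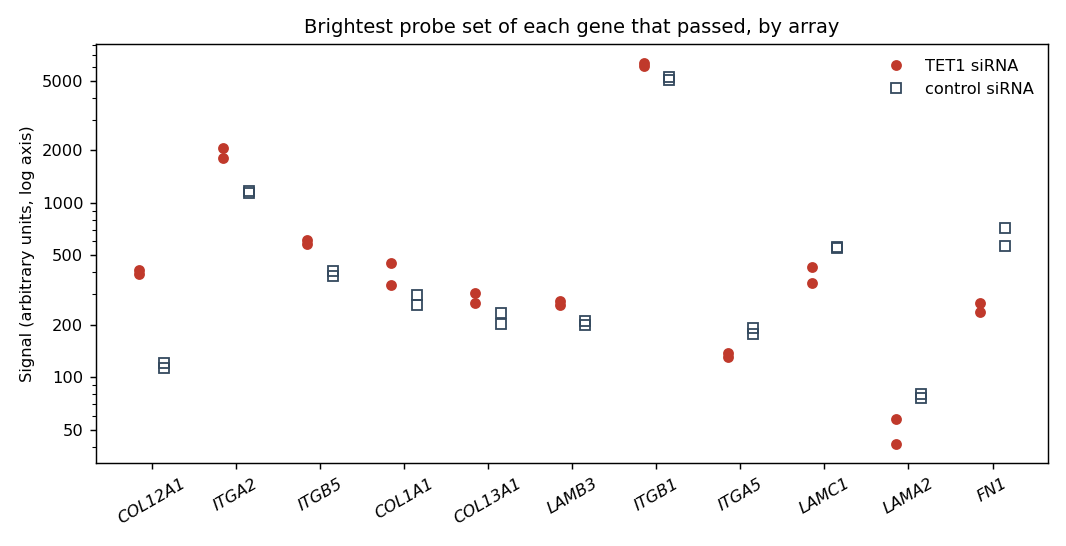
Signal (arbitrary units, log axis) of the brightest probe set of each of the 11 member genes that passed, in order of log2 difference from COL12A1 to FN1; filled circles are TET1 siRNA arrays and open squares control siRNA arrays. The gap between groups is widest for COL12A1 (392.6 and 409.6, against 113.4 and 120) and FN1 (267.5 and 237.4, against 565.9 and 713.7).

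Seen by family, the tested integrin probe sets gave 6 rises and 1 fall among 17, with a median log2 difference of 0.26, and in 10 of the 17 both TET1 siRNA arrays lay above both control siRNA arrays. The collagens gave 5 rises and no fall among 25, with a median of 0.04, and fibronectin 4 falls among the 4 that averaged 30 in both groups. Beside each count stand the shares over all probe sets, 11.2% higher, 12% lower and 30.7% with both TET1 siRNA arrays above. These counts take several probe sets of the same gene. By brightest probe set, 1 of 5 tested integrin alpha genes rose and 1 fell. Of the tested integrin beta genes 2 of 4 rose, and of the collagen genes 3 of 12. Over all genes tested this way, 13.2% rose and 12.6% fell. In 7 genes some tested probe sets passed and others did not (COL12A1, COL13A1, COL1A1, LAMA2, LAMC1, ITGB1 and ITGB5), and in no gene did probe sets pass in opposite directions. Without a variance trend in the fit, the calls of COL13A1, COL1A1, LAMA2, LAMB3, LAMC1, ITGA5 and ITGB1 ended, and those calls ended too when dim probe sets were kept in the fit, with 231879_at of COL12A1, 214701_s_at of FN1 and 214020_x_at of ITGB5.

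**Figure D4:**
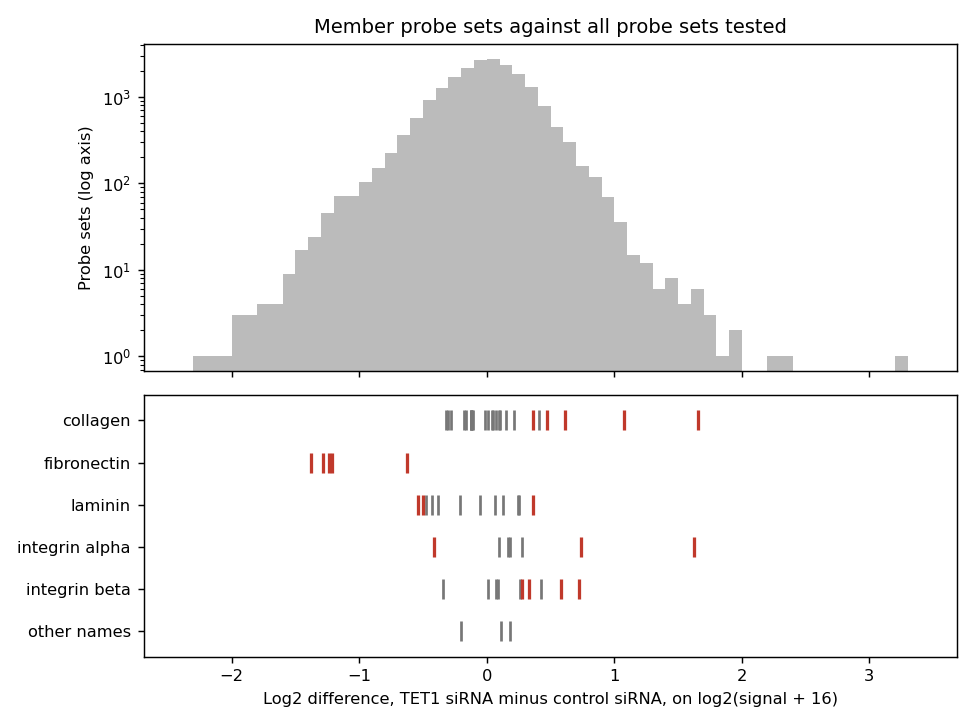
Upper panel: histogram of log2 differences (TET1 siRNA minus control siRNA, on log2(signal + 16)) of all 20620 probe sets tested, with a log count axis. Lower panel: each member probe set as a tick in its family, red where it passed; most ticks lie under the bulk, and those of FN1, COL12A1 and ITGA2 reach into the tails.

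Promoter windows were found for 24 of the 32 member genes tested, 10 of them past the threshold. CG counts ran from 8 to 32 (median 18.5) in the 6 that rose, from 9 to 32 (median 22) in the 4 that fell and from 5 to 37 (median 20.5) in the 14 that did not pass. The letters CATTCC, the core bound by TEAD factors, were searched on both strands: they occurred at -167 in COL12A1 and at -182 in ITGB1, which rose, and at -82 in ITGA5 and -167 in LAMA2, which fell, and 11.9% of all windows hold them. TGACGTCA, the cyclic AMP response element, occurred in FN1 alone of the 24, at -183, and in 1.65% of all windows. GGGCGG, the GC box, occurred 6 times in FN1, where some matches overlap, 4 times in ITGA2 and 1 time in COL12A1. It was most frequent in COL18A1, which did not pass, with 9. The box was in 5 of the 6 genes that rose, 3 of the 4 that fell and 8 of the 14 that did not pass, and 42.6% of all windows hold it. TGACTCA, the AP-1 site, was in none of the 24 and in 4.2% of all windows. Such matches describe letters in a short window.

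Genes that work around these proteins were followed in 5 lists, each gene by its brightest probe set, beside a background of 13.2% higher and 12.6% lower among 10368 genes. Of 12 tested genes of basement membrane and matrix glycoproteins, 1 rose and 3 fell. THBS1 (thrombospondin), a matricellular protein, read 139.7 and 131 after TET1 siRNA, against 49.1 and 38.4 after control siRNA (log2 difference 1.35). VCAN, a large proteoglycan, read 599.4 and 569.7 against 936 and 955.3 (-0.68), FBLN1, a fibulin that binds fibronectin and laminin, was at -0.72, and NPNT, a basement membrane ligand of the integrin of ITGA8 and ITGB1, fell by 0.55. FBLN1 (29.5 and 23.6 against 46.3 and 62.6) was tested only through the control siRNA group, where it is high, and passed in 2 of its 3 tested probe sets, so its call adds no support to the 3. Of 18 tested genes of collagen folding and crosslinking, 1 rose and 3 fell. PLOD3, a lysyl hydroxylase and glycosyltransferase of collagen, read 124.6 and 136.2 against 230.1 and 264.4 (-0.84), the collagen galactosyltransferase gene COLGALT1 fell by 0.43 (1 of its 2 tested probe sets passed) and the prolyl hydroxylase subunit gene P4HA2 by 0.37, while the prolyl 3-hydroxylase gene P3H1 rose by 0.45. Medians of these lists were -0.15 and 0.0025, against 0.01 over all genes.

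Of 27 tested genes of focal adhesions and integrin activation, 6 rose and 3 fell, with a median of 0.05. FERMT2 (kindlin), which binds integrin beta tails and helps activate them, read 1063.7 and 994.9 after TET1 siRNA, against 557.3 and 573.8 after control siRNA (log2 difference 0.85). PXN (paxillin), an adaptor of focal adhesions, read 209.2 and 146.8 against 354.9 and 292.2 (-0.82). CAV1 (caveolin) rose by 0.51, and LPP, a zyxin relative, fell by 0.50 but passed in 3 of its 6 tested probe sets. Among 17 matrix proteases and inhibitors 2 rose and 2 fell (median 0.11): TIMP2, an inhibitor of matrix metalloproteinases, rose by 0.80 and ADAM9 by 0.37 (1 of 2 tested probe sets), while urokinase (PLAU) fell by 0.70 and its receptor gene PLAUR by 0.30 (2 of 3). Among 20 other matrix receptors and integrin partners 3 rose and 4 fell (median -0.02). The cytoskeletal linker gene MACF1 rose by 0.74, and the glypican gene GPC1 fell by 0.56 (1 of 2 tested probe sets), the hyaluronan receptor genes HMMR by 0.51 and CD44 by 0.42; CD44 passed in 2 of its 9 tested probe sets.

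**Figure D5:**
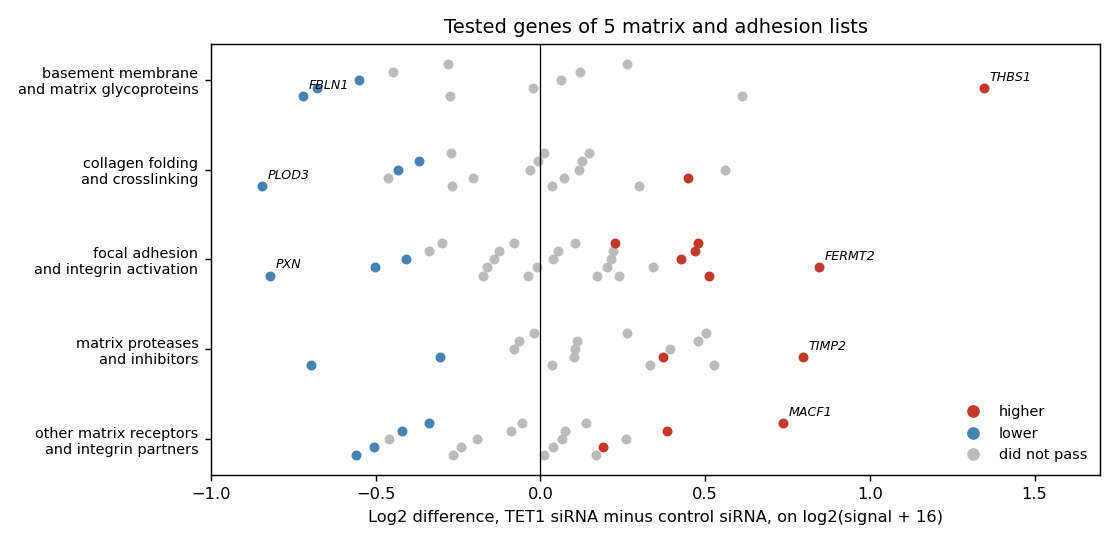
Log2 difference (TET1 siRNA minus control siRNA, on log2(signal + 16)) of each tested gene of the 5 matrix and adhesion lists, by its brightest probe set; red rose, blue fell and grey did not pass, and vertical position within a list only spreads the points. THBS1 (1.35) lies farthest right and PLOD3 (-0.84) farthest left.

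Markers of endothelial, smooth muscle and blood cells were mostly dim. Summed signals of 8 endothelial markers were 119 and 89.2 with TET1 siRNA and 53.6 and 85.9 with control siRNA, and of 6 smooth muscle markers 305.1 and 272.8 with TET1 siRNA and 197.1 and 253.8 with control siRNA. Those of 6 leukocyte markers were 51.7 and 46.1 with TET1 siRNA and 35.2 and 66.6 with control siRNA. ACTA2 (234.4 and 222.3 against 129.4 and 148.7) rose. It made up most of each smooth muscle sum and was the only smooth muscle marker to reach the signal limit. ESAM read 67.5 and 60.6 against 4.7 and 25.6 and reached the signal limit only through the TET1 siRNA group, where it is high. No other endothelial marker reached that limit. The higher sums therefore follow ACTA2 and ESAM and show no rise of the other markers. Of the dim markers, the defining genes PECAM1, CDH5, MYH11 and PTPRC averaged 17.6, 3.5, 7.9 and 5.45. The part of these markers in the values of the matrix and integrin genes was not tested.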

How the data were processed

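The deposited table holds 1 signal intensity per probe set and array, on a linear scale, which the authors had scaled array by array (equal means after trimming 2% at either end). Per the labels' protocols, oligo(dT)-primed cDNA was made into biotin-labelled cRNA, which favours sequence near the poly(A) tail. Which software and background correction made them is not given in the sources used here. Values of dim probe sets depend on that background step. The 62 array controls among 54675 probe sets were not used. A single gene symbol was annotated for 41091 probe sets, several for 1801 (never used to name a gene) and none for 11721. All 84 member symbols were in the RefSeq table.

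Samples were grouped by the siRNA in their labels. Values were used as log2(signal + 16), a scale that understates changes of dim probe sets. The 20620 non-control probe sets with a mean signal of 30 or more were each tested with limma 3.58.1 in R 4.3.3 (linear model with empirical Bayes moderation and a mean-variance trend), two-sided, with Benjamini-Hochberg adjustment at 0.05. Residual degrees of freedom were 2 and prior degrees 8.85. With 2 arrays on either side, no exact permutation p can be under 0.333. Members and lists were chosen with earlier results of these data known.

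Named were all member genes past the threshold, those whose probe sets differed in call, the brightest gene of each family that did not pass, TET1 and up to 4 genes of each list. Alternatives were median centring or quantile normalization, a pseudocount of 1 or 64, a fit with no trend or with no moderation, the replicate block, 3 other filters, 2 ways to take 1 value per gene, leaving out _x_at and _s_at probe sets (whose probes can match several transcripts), a fold limit and leaving out each array. The limma step was tested on simulated data. Figures were drawn with matplotlib 3.10.9.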

Additional observations from a re-analysis of the deposited data

How the results depend on the processing

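Of the 20 member probe sets called, 8, from COL12A1, ITGA2 and FN1, passed in every moderated alternative in which they had a value, and the other 12 lost their call in at least 1. FN1 had no value after removal of _x_at and _s_at probe sets. ITGB5 201125_s_at lost its call only at the 1.5-fold limit. No called probe set changed direction in these. Counts higher and lower after TET1 siRNA, 12 and 8 as reported, became 7 and 5 when the trend was dropped, 5 and 4 when dim probe sets were kept, and 0 and 0 without moderation (9 and 8 at unadjusted p below 0.05). They were 6 and 5 at 1.5-fold or more, 7 and 4 with 1 brightest probe set per gene, 5 and 4 with the mean of a gene's tested probe sets, and 7 and 3 after removal of those named _x_at or _s_at, where fewer features were tested. Leaving out 1 array gave 8 to 11 higher and 5 to 7 lower (5 without control siRNA replicate 2), with the single array left taken to have the spread of its counterpart group. Over all probe sets, 2310 were higher and 2471 lower as reported, 1220 and 1622 when the trend was dropped, 1098 and 1204 when dim probe sets were kept, 757 and 1118 at 1.5-fold or more, and 0 and 1 without moderation. They were 1483 and 1378 with 1 probe set per gene, 1378 and 1416 with the mean per gene, 1260 and 1423 after removal of _x_at and _s_at probe sets, and 1535 and 1821 without TET1 siRNA replicate 1, and 1525 and 1831 without TET1 siRNA replicate 2. The cause of the lower counts in those fits was not tested.

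Of the 62 member probe sets rerun, 21 changed direction in at least 1 alternative; none of them had passed, and 19 did so only when 1 array was left out. Log2 differences with 1 array left out ran, among these collagen probe sets, as follows: COL13A1 211809_x_at -0.0428 to 0.3479, COL1A1 202310_s_at -0.2334 to 0.4482, COL27A1 225292_at -0.2686 to 0.3593, COL4A4 229779_at -0.0649 to 0.2132, COL4A5 213110_s_at -0.0386 to 0.0506, COL4A6 213992_at -0.0046 to 0.0876, COL5A2 221729_at -0.3134 to 0.0902, COL6A1 212937_s_at -0.1622 to 0.3529, COL6A1 213428_s_at -0.3451 to 0.0906, COL6A2 209156_s_at -0.1946 to 0.1658, COL6A2 213290_at -0.2731 to 0.029 and COL9A3 204724_s_at -0.7382 to 0.512. Among laminin probe sets they were LAMA5 210150_s_at -0.2691 to 0.7768, LAMB2 216264_s_at -0.0047 to 0.1296, LAMC1 200770_s_at -0.2324 to 0.1223 and LAMC3 219407_s_at -0.0015 to 0.2587. Among integrin and like-named probe sets they were ITGA6 201656_at -0.1027 to 0.4359, ITGB1BP1 203337_x_at -0.0083 to 0.2358, ITGB4 204990_s_at -0.0405 to 0.0644, ITGB4 211905_s_at -0.0476 to 0.2283 and ITGB5 201124_at -0.0829 to 0.2302. COL6A2 209156_s_at also turned to 0.0085 after quantile normalization and 0.0208 after median centring, and ITGB4 204990_s_at to -0.0789 with the mean of the gene's probe sets. None of the 33 other probe sets rerun, of TET1 and of list or marker genes past the threshold, changed direction. With the replicate number as a block, 12 were higher and 7 lower; LAMA2 205116_at was lost (adjusted p = 0.0591) and no other called member. Deviations of same-numbered arrays from their group means were uncorrelated (r = 0.00416 across probe sets). With 2 arrays a group this is 1 value, which cannot show whether same-numbered arrays shared more than a number.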
